A study of Mus musculus with 26 samples.

Results

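The genes described here are 10 genes of fatty acid synthesis, Fasn, Acaca, Acacb, Scd1, Elovl6, Mlxipl, Srebf1, Me1, Acly and Thrsp, chosen by name for their known roles and followed in regenerating mouse liver. They were 10 of 20933 genes over which RNA polymerase II (Pol II) was measured by ChIP-seq, the sequencing of DNA that an antibody pulls down with its protein. All samples came from wild-type male C57BL6/J mice, 7 weeks old, that underwent partial hepatectomy, the removal of 3 of 5 liver lobes. The tissue resected in that operation was the 0 h sample, and livers followed at 3, 8, 16, 24, 36, 48 and 168 h. C/EBPalpha, C/EBPbeta and Pol II were each assayed at all 8 times, and the transcription factor Egr1 at 36 h alone. Livers of 5 mice were taken per time, and whether they were pooled is not stated. Each antibody and time had 1 library. With no replicates, a change in the liver cannot be told apart from the properties of a single library. The labels give the tissue as total hepatectomized liver, and all 7 hepatocyte markers, such as Alb and Apoa1, carried Pol II. After the authors' background subtraction, 4 of the 5 stellate cell and fibroblast markers and 3 of the 4 measured bile duct markers lay below 0 in all 8 libraries. The exceptions were Lrat, up to 0.448 at 168 h, and Sox9, with 3.80 at 16 h. Summed signals per library were 1.33 to 4.71 for 5 Kupffer cell and macrophage markers, 0 to 1.91 for 5 endothelial markers and 299.5 to 774 for the hepatocyte markers. The hepatocyte sum was highest at 3 h, when Apoa1 (649) and Fgb (101) were at their highest. Alb, Ttr, Apob, Serpina1a and Cps1 were at their lowest in that library.

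Liver makes fatty acids from surplus carbohydrate. ATP citrate lyase (Acly) turns citrate into acetyl-CoA, acetyl-CoA carboxylase (Acaca, and its mitochondrial form Acacb) makes malonyl-CoA, and fatty acid synthase (Fasn) builds palmitate from it with NADPH, part of which malic enzyme (Me1) supplies. Elovl6 lengthens the product and stearoyl-CoA desaturase (Scd1) puts in a double bond. The pathway is known to be switched on by insulin through SREBP-1c, a product of Srebf1, and by glucose through ChREBP, the product of Mlxipl. Thrsp, also called Spot 14, is a small protein induced together with these enzymes. C/EBPalpha and C/EBPbeta are related transcription factors abundant in hepatocytes.

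Promoter sequences are shown for the genes with a C/EBP region within 300 bp of the start in 6 or more of the 16 C/EBP lists, which were Srebf1 (16 lists), Thrsp (11) and Elovl6 (9), and for Fasn (4), which was added after its values were seen. Acaca met the rule with 14 lists, but no RefSeq start lay near the start used in these files. Each sequence is the 250 bases before the RefSeq start in GRCm38.p6 (for Srebf1 the one of its 3 RefSeq starts nearest the deposited entry, which lies inside the gene), 5′ to 3′ on the gene's strand, with the letters CCAAT or their reverse complement in capitals.
Thrsp, chr7:97417551-97417800, minus strand: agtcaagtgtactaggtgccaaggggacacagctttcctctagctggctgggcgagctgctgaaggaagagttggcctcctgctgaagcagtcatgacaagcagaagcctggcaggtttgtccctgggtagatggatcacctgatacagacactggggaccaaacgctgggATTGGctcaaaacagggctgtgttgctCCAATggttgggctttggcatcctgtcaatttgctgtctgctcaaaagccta
Fasn, chr11:120824548-120824797, minus strand: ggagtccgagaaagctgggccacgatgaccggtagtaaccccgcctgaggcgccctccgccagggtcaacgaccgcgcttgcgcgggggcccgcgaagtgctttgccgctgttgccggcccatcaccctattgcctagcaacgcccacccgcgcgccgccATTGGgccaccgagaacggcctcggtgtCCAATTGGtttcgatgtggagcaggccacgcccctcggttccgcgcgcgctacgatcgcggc
Srebf1, chr11:60210472-60210721, minus strand: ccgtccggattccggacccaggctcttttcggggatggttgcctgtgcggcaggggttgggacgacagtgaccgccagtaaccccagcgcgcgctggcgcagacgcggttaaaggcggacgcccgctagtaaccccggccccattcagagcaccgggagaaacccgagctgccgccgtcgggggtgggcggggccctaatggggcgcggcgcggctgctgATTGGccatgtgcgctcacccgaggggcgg
Elovl6, chr3:129532136-129532385, plus strand: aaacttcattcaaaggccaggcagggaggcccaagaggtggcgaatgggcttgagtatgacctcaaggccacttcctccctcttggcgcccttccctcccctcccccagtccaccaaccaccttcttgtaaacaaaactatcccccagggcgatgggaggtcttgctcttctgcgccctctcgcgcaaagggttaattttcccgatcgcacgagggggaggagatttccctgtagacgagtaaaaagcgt
The windows of Thrsp and Fasn contained the centres of their C/EBP regions near the start, 11 of 11 and 4 of 4. They lay 117 to 1 bp before the RefSeq start of Thrsp and 132 to 72 bp before that of Fasn. The windows of Srebf1 and Elovl6 contained none, because the centres lay 87 to 209 bp past the Srebf1 start and 285 to 254 bp before the Elovl6 start. These offsets carry the deposited mm9 distances to RefSeq starts through neighbouring genes, which differed by up to 24 bp for these 4 genes. Thrsp and Fasn each held CCAAT on both strands, at 79 to 75 and 52 to 48 bp before the Thrsp start, and at 90 to 86, 62 to 58 and 59 to 55 bp before the Fasn start, where the last pair share bases. Srebf1 held it once, 30 to 26 bp before the start.

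Of the 10 genes, 7 had a RefSeq start within 300 bp of the start used here and were searched for 5 motifs on both strands of this window. CCAAT occurred in 4 (Acacb, Fasn, Srebf1 and Thrsp), against 33.8% of the 32851 RefSeq promoters of this length. TTGCNNAA, the usual C/EBP motif with its middle bases free, occurred in none, against 9.56%. CACGTG, an E box, also occurred in none, against 6.02%. TCACNCCAC, a form of the sterol response element, occurred in Mlxipl alone, against 1.05%, and TATAAA in Acacb alone, against 12.4%. Such matches describe letters and are not binding sites.

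Values are given in time order (0, 3, 8, 16, 24, 36, 48 and 168 h), and positions of measured bodies in the build mm9. Pol II is given as the authors' background-subtracted signal per bp of the measured gene body, rescaled between libraries. A gene was tested when it exceeded 0.5 in at least 2 of the 8 libraries, which 4761 genes and 9 of the 10 did. Differences are on the scale of log2(signal + 0.5), with values below 0 set to 0, so those of low genes are understated. A difference of 1 or more on that scale was counted.

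**Figure D1:**
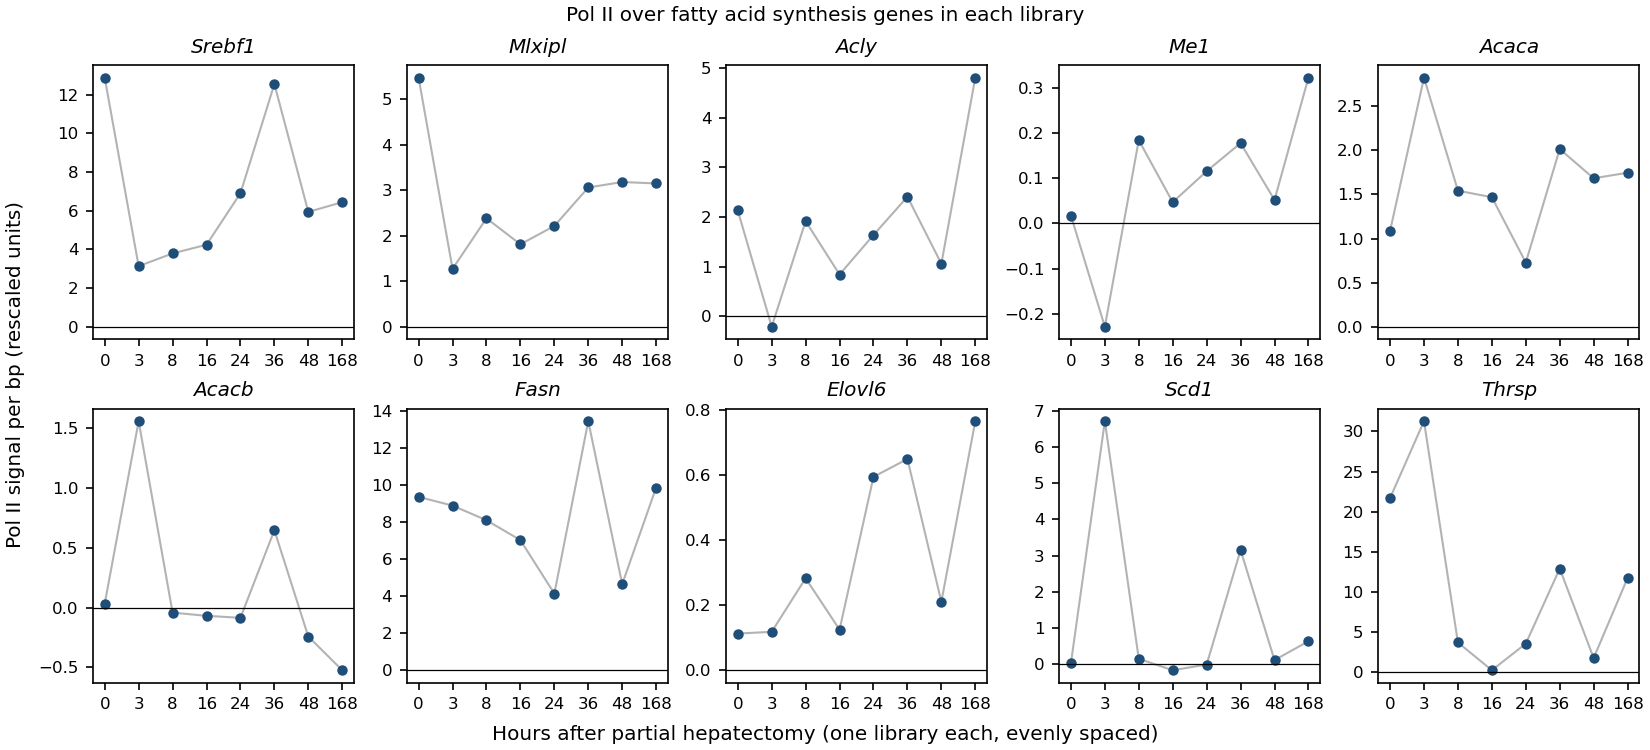
Pol II signal per bp (rescaled units, own scale in each panel) over the 10 genes at each time after partial hepatectomy, 1 library per point, joined by grey lines for reading only. Fasn, Scd1, Acacb and Thrsp peak at 36 h between lower values at 24 and 48 h, and Mlxipl and Srebf1 are lower at 3 h than at 0 h.

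The 2 transcription factor genes carried less Pol II soon after surgery. Srebf1, measured on chromosome 11 at 60012592 to 60023356, had 12.9, 3.13, 3.79, 4.24, 6.91, 12.6, 5.94 and 6.44 signal units per bp. The 36 h library thus stood close to 0 h and the other 6 lay below both. Mlxipl, on chromosome 5 at 135583294 to 135614254, had 5.48, 1.27, 2.38, 1.81, 2.22, 3.06, 3.18 and 3.15. Its 0 h library was the highest of the 8 and its 3 h library the lowest. Against 0 h, Srebf1 differed by -1.88, -1.64 and -1.50 on the log2 scale at 3, 8 and 16 h. The differences of Mlxipl at these times were -1.75, -1.05 and -1.37. In bulk liver, fewer hepatocytes and less Pol II per hepatocyte cannot be told apart.

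Acly, which provides the acetyl-CoA and was measured on chromosome 11 at 100362061 to 100388680, had 2.13, -0.211, 1.91, 0.841, 1.64, 2.41, 1.06 and 4.81 signal units per bp. The 3 h library was its lowest and the 168 h library its highest. The 3 h difference was -2.40 and the 168 h difference 1.01, which was 0.17 without rescaling. Me1, on chromosome 9 at 86476009 to 86589302, stayed between -0.229 (3 h) and 0.322 (168 h), exceeded 0.5 in no library and was not tested.

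The 2 carboxylase genes were highest at 3 h. Acaca, on chromosome 11 at 83987321 to 84009080, had 1.09, 2.82, 1.54, 1.47, 0.728, 2.01, 1.68 and 1.75, lowest at 24 h. Acacb, on chromosome 5 at 114616028 to 114699743, had 0.0323, 1.56, -0.0421, -0.0689, -0.0857, 0.646, -0.242 and -0.523. Only the 3 and 36 h libraries of Acacb thus exceeded 0.5. At 3 h the differences were 1.07 for Acaca, 0.88 without rescaling, and 1.95 for Acacb. The measured body of Acacb shared 249 bp with a gene on the other strand, and ChIP carries no strand.

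Fasn, on chromosome 11 at 120667273 to 120685361, carried 9.38, 8.91, 8.11, 7.04, 4.14, 13.5, 4.65 and 9.89 signal units per bp. The 36 h value stood above all others, between the 2 lowest values at 24 and 48 h. The difference from 0 h was -1.09 at 24 h, 0.50 at 36 h and -0.94 at 48 h.

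Of the 2 enzymes that modify the product, Scd1 had the wider range. On chromosome 19 at 44468946 to 44481543, it carried 0.0180, 6.72, 0.140, -0.175, -0.0184, 3.15, 0.105 and 0.627. The 3 and 36 h libraries held nearly all of its signal, with differences from 0 h of 3.80 and 2.82. Scd2, Scd3 and Scd4, its close relatives, did not exceed 0.5 in any library. Elovl6, on chromosome 3 at 129235805 to 129341413, stayed low, at 0.113, 0.118, 0.283, 0.125, 0.595, 0.650, 0.211 and 0.767, with 24, 36 and 168 h above the others.

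Thrsp, on chromosome 7 at 104561470 to 104565520, was the highest of the 10 on average. It had 21.7, 31.3, 3.72, 0.271, 3.58, 12.9, 1.78 and 11.8 signal units per bp. Its 4 high libraries were 0, 3, 36 and 168 h, and the 4 others did not reach 4 signal units per bp. The differences from 0 h were -2.39, -4.85, -2.45 and -3.28 at 8, 16, 24 and 48 h.

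**Figure D2:**
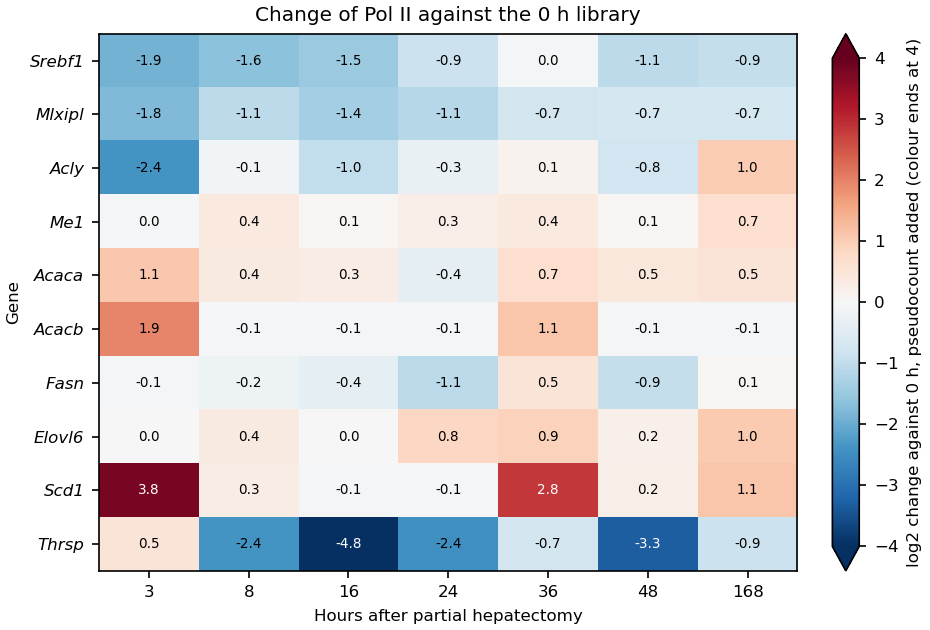
Difference of Pol II from the 0 h library on the log2(signal + 0.5) scale, genes in rows by role and hours after surgery in columns, 1 library each. Scd1 reaches 3.80 at 3 h and 2.82 at 36 h, and Thrsp -4.85 at 16 h.

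All of these differences share the single 0 h library. At 3 h, 3 of the 9 tested genes were higher by 1 or more (Acaca, Acacb and Scd1), against 18.1% of all tested genes, and 3 were lower (Srebf1, Mlxipl and Acly), against 21.4%. At 8 h none was higher (14.5%) and 3 were lower (Srebf1, Mlxipl and Thrsp, 12.8%), and the same held of these 3 genes at 16 h (15.1% and 10.6%). At 24 h none was higher (18.4%) and Fasn, Mlxipl and Thrsp were lower (14.4%). At 36 h Acacb and Scd1 were higher (16.5%) and none was lower (11.1%). At 48 h none was higher (15.2%) and Srebf1 and Thrsp were lower (13.5%). At 168 h Scd1, Elovl6 and Acly were higher (17.7%) and none was lower (19.3%). Acacb and Scd1 exceeded 0.5 only in the libraries where they were counted as higher, so they were tested through those libraries alone. The median difference of the 9 genes was 0.01, -0.12, -0.39, -0.37, 0.50, -0.70 and 0.07 from 3 to 168 h, against -0.08, 0.06, 0.09, 0.07, 0.12, 0.05 and 0.00 over all tested genes. Without rescaling, none was higher and 3 were lower at 168 h, and 5 were lower at 48 h.

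The 3 h library stood apart from the others, with 50.6% of its gene entries below 0 and a deposited signal that summed to -16276217, where no other library summed to less than 32639618. Its part in the 3 h values was not tested. With this library left out of the rescaling and the filter, Acacb no longer entered. The numbers of genes higher or lower were the same at 8, 16, 24 and 48 h. At 36 h Scd1 alone was higher, and at 168 h Scd1 was higher and Srebf1 lower.

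A trend over the 8 libraries was tested by limma's F test on a spline with Benjamini-Hochberg adjustment over the 4761 tested genes, and none of the 9 genes passed. The smallest adjusted p of limma was 0.514, for Srebf1, and the largest 0.994, for Scd1. Over all tested genes 1 (0.0210%) passed, and at an unadjusted p under 0.05 there were 458 (9.62%), none of them among the 9. A smooth curve through 8 times leaves a rise in a single library as residual spread.

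The 36 h library stood above its neighbours in time at most of these genes, a pattern noticed after the values were seen. Signal at 36 h exceeded that at both 24 and 48 h at 8 of the 9 tested genes, all but Mlxipl, against 36.3% of all tested genes. Without rescaling this was 9 of 9, against 55.1%. By 1 or more on the log2 scale it did so at Fasn, Acacb, Scd1 and Thrsp, 4 of 9 against 3.76%, and without rescaling at 5 of 9, against 6.57%. Acacb is among the tested genes only through its 3 and 36 h libraries, and without the 3 h library it was not tested and 3 genes remained (Fasn, Scd1 and Thrsp). Of the 27 tested genes in the list of other pathway genes, 10 stood above both neighbours, 20 without rescaling, and by 1 or more none did, or 1 (Mlx) without rescaling. At 3 h the signal exceeded that at both 0 and 8 h at 4 of 9 (31.5% of tested genes), and by 1 or more at Acacb and Scd1 (7.88%). At Scd1 both the 3 and 36 h libraries stood above every other library by 1 or more, a pattern chosen after it was seen and met by 0.252% of tested genes (12 in all). Acacb also met this pattern, but no longer did so with the library medians subtracted first. Acacb entered the test through the 3 and 36 h libraries alone. Scd1 entered through them and the 168 h library (0.627), which alone would not have passed the filter. Both genes were thus admitted by the libraries that define the pattern, so the 0.252% is no independent background for them. Samples were 1 per time, so no test of these counts over samples was possible.

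Other cell types and the hour of day were looked at beside these values, since fat cells also express this pathway and the clock is known to act on it. Of the 6 adipocyte markers 5 were measured and none was tested. Adipoq and Lep lay below 0 in all 8 libraries. Cfd, Fabp4 and Lipe had 1.60, 0.612 and 0.460 at 3 h, and -0.135, 0.0934 and 0.428 at 36 h. The summed signal of the 5, with values below 0 set to 0, was 0.757, 2.68, 0, 0.506, 0, 0.521, 0 and 0, highest at 3 h. Nr1d1, a clock gene named after its values were seen, had 32.5, 5.11, 12.5, 0.0704, 13.5, 1.28, 16.8 and 18.7, lowest at 16 and 36 h. The sources used here give neither the hours of surgery and harvest nor feeding, so time after surgery and hour of day cannot be told apart.

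Other genes of the pathway were followed as a list of 42 in 4 groups, of which 41 were measured and 27 tested. None passed the trend test over all genes (smallest adjusted p of limma 0.458), and 2, Elovl3 and Insig2, had an unadjusted p under 0.05. At 3 h 12 of the 27 were lower by 1 or more and 1 (Lpin1) was higher, against 21.4% and 18.1% of all tested genes, with a median of -0.33 against -0.08. At the later times 1 to 6 were higher and 2 to 5 lower, where the shares of all tested genes were 14.5% to 18.4% and 10.6% to 19.3%.

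Of the 8 genes supplying carbon and NADPH, 5 were tested, and 1 (Pklr) was lower at 3 h and none higher. Slc25a1, the mitochondrial citrate carrier, had 2.82, 2.15, 2.52, 3.53, 1.20, 2.97, 2.99 and 2.51. Idh1, which makes NADPH in the cytosol, had 2.24, 1.90, 2.11, 2.89, 2.97, 2.15, 2.18 and 3.85. Slc25a1 was lowest at 24 h, and in these rescaled values Idh1 was highest at 168 h, as was Acly. Without rescaling Idh1 was higher at 16 h than at 168 h, and Acly had 2.96 at 168 h against 2.91 at 36 h.

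In the elongation and desaturation group 6 of 9 were tested, and 4 were lower at 3 h. Fads1, a desaturase of polyunsaturated fatty acids, had 6.82, 3.33, 4.39, 5.39, 5.28, 7.69, 5.07 and 5.78. Elovl3, an elongase, had 0.908, -0.125, 0.293, 7.55, 10.9, 8.34, 1.23 and -0.279. Its signal was high in 3 successive libraries, 16, 24 and 36 h.

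Among the genes of fatty acid activation and triglyceride assembly, 7 of 11 were tested, and at 3 h 4 were lower and 1 was higher. Agpat2, which makes phosphatidic acid, stayed between 7.11 (0 h) and 12.8 (16 h). Dgat2, which completes triglycerides, had 12.3, 2.24, 6.89, 7.22, 7.80, 6.10, 6.59 and 14.9, lowest at 3 h. Of the regulators 9 of 14 were tested, and 3 were lower at 3 h. Insig1, which holds SREBP precursors in the endoplasmic reticulum, had 14.6, 1.66, 6.66, 7.48, 11.2, 15.4, 8.51 and 10.7. As at Srebf1, its 2 highest libraries were 0 and 36 h and its lowest was 3 h. Rxra, a nuclear receptor, stayed between 7.46 (3 h) and 13.5 (24 h).

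**Figure D3:**
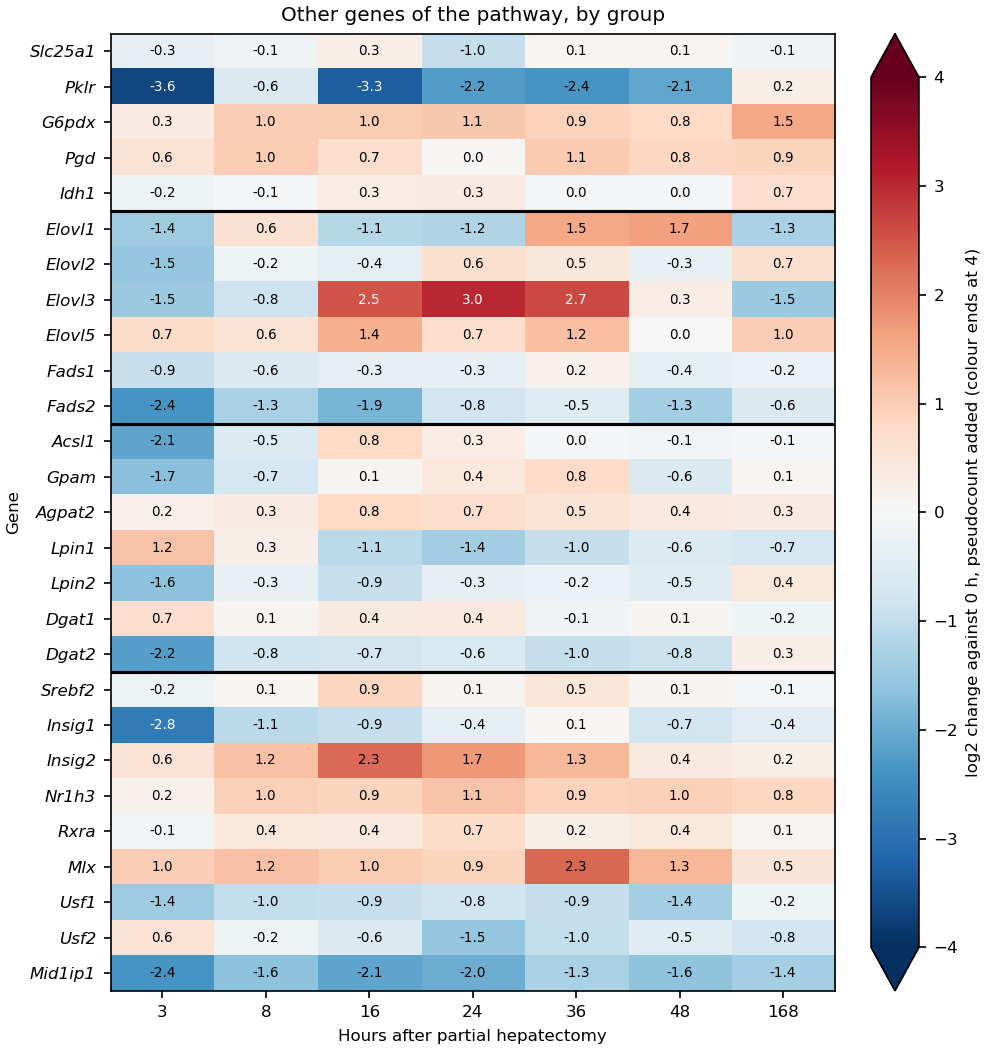
Difference of Pol II from the 0 h library on the log2(signal + 0.5) scale at the 27 tested genes of the pathway list, in 4 groups divided by black lines (supply, elongation and desaturation, assembly, regulators). In the 3 h column 12 genes are lower by 1 or more and 1, Lpin1, is higher.

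The 5 genes whose profile over the 8 libraries was most like the mean profile of the 9 tested genes were Rps3a (Pearson's r = 0.93), Cbr2 (0.91), Zfp446 (0.91), Evi2a (0.89) and Ache (0.88). These values describe 8 libraries shared by all genes, and are the highest among all other tested genes. The mean profile itself was highest at 36 h, 0.76 above its own average on the log2 scale, and lowest at 16 h, at -0.74. Over the 8 libraries the 9 genes spanned a median of 1.88 on the log2 scale, against 1.60 for all tested genes.

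C/EBP regions near the 10 genes were counted within 10 kb of the gene start. C/EBPalpha regions lay within this distance at 8 to 10 of the genes in each list, 73 of 80 gene and time pairs, against 65.1% of such pairs over the genes tested for Pol II. For C/EBPbeta it was 7 to 10 genes and 72 of 80 pairs, against 71.0%. Within 1 kb it was 3 to 5 genes and 33 pairs for C/EBPalpha (30.2%) and 3 to 7 genes and 38 pairs for C/EBPbeta (36.1%), with 7 genes at 3 h (51.2%), 6 at 8 h (36.7%) and 6 at 36 h (46.3%). Of all tested genes, 39.4% had a region in all 16 lists, as had 7 of the 10. The exceptions were Scd1, Me1 and Thrsp.

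**Figure D4:**
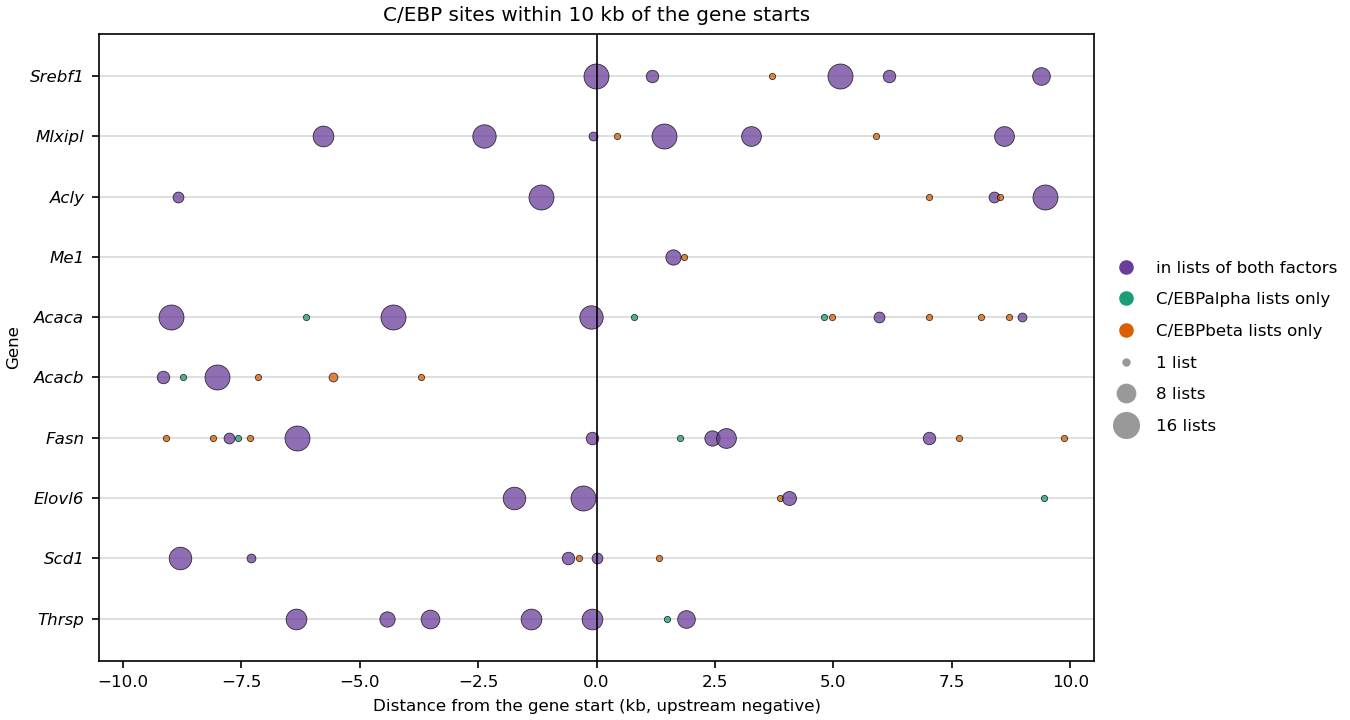
Position of C/EBP sites relative to the gene start (kb, upstream negative) for the 10 genes, where circle area gives the number of the 16 lists with a region at the site and colour the factors. Large circles, in all 16 lists, are present at 7 genes, and Me1 has only small ones.

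Region centres within 100 bp of each other were joined into 71 sites, of which 10 were in all 16 lists and 28 in 1 list. The 10 lay at 7 genes. Srebf1 had one across the start used here, on chromosome 11 at 60023752 to 60023900 in mm9, and another 5136 bp downstream. The centres of the first lay 87 to 209 bp past the nearest RefSeq start. Acaca had a pair 8990 and 4286 bp upstream, and Acly a pair at 1162 bp upstream and 9458 bp downstream of the start. Fasn had one 6312 bp upstream, at 120692110 to 120692236 on chromosome 11, Acacb one 8020 bp upstream, Elovl6 one 276 bp upstream and Mlxipl one 1427 bp downstream. Scores, which the authors scaled within each list, placed 4 of these in the top 25% of every one of the 16 lists. They were the sites of Fasn, Acacb and Mlxipl and the Srebf1 site 5136 bp downstream. The others reached the top 25% in 1 list (Acly, 9458 bp downstream) to 15 lists (Acly, 1162 bp upstream), and both Acaca sites in 8. How many tested genes have a joined site in all 16 lists, or one of such scores, was not counted.

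With centres joined within 100 bp, regions at the other genes and sites were listed at some times only. Fasn sites 2443 and 2732 bp downstream were in 6 and 10 lists, and together they covered every list. Centres of the Acly site 9458 bp downstream, counted as in all 16 lists, ran from 9346 to 9658 bp. Thrsp had 7 sites and none in every list. C/EBPalpha regions within 10 kb of its start numbered 6, 6, 5, 1, 4, 3, 0 and 5 from 0 to 168 h, and C/EBPbeta regions 4, 5, 5, 0, 3, 5, 0 and 5. The lists of 16 and 48 h, which held 1 region or none, were of the times when its Pol II was lowest, 0.271 and 1.78. The 8 and 24 h lists held 3 to 5 regions with Pol II at 3.72 and 3.58. Of the tested genes, 29 (0.609%) had C/EBPbeta regions within 10 kb at every time but 16 and 48 h, a pattern chosen after it was seen at Thrsp. The 48 h lists were the shortest, with 20061 and 20608 regions, against 25781 to 54574 in the others, and the part of list length was not tested. Around the start itself, inside the window printed above, regions were found in C/EBPalpha at 0, 3, 8, 24, 36 and 168 h and in C/EBPbeta at 0, 3, 8, 24 and 36 h. Their scores ran from 7 to 74, and most lay below the median of their list.

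Scd1 had a site across the start used here, on chromosome 19 at 44481955 to 44482089, in C/EBPbeta at 3 and 36 h and in C/EBPalpha at 36 h. These are the 2 times at which its Pol II was highest. Scores at the site were 23 and 16 for C/EBPbeta at 3 and 36 h, against list medians of 16 and 17. For C/EBPalpha at 36 h the score was 33, against a median of 41. Within 300 bp of the start, C/EBPbeta regions at 3 and 36 h and at no other time were found at 4.52% of tested genes, and at Scd1 alone of the 10. Within 1 kb none of the 10 had this pattern, against 5.06%, as Scd1 then also had regions at 8 and 168 h. At both these times, whatever the others, they were found at 22.8% of tested genes and at 6 of the 10 (Fasn, Acaca, Scd1, Elovl6, Srebf1 and Thrsp). The C/EBPbeta lists of 3 and 36 h had regions within 1 kb of more tested genes (51.2% and 46.3%) than the other C/EBPbeta lists (27.3% to 36.7%). A farther site, 8790 bp upstream, was in 13 lists. Scd1 had no C/EBPalpha region within 10 kb at 8 and 24 h and no C/EBPbeta region at 16 h, when its Pol II was 0.140, -0.0184 and -0.175. At 0 h, with a Pol II signal of 0.0180, it had 1 C/EBPalpha and 2 C/EBPbeta regions.

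Fasn had regions around its start, 98 bp upstream in the window printed above, in C/EBPbeta at 3, 16 and 36 h and in C/EBPalpha at 16 h. Their scores were 13, 8 and 14 in C/EBPbeta and 12 in C/EBPalpha. All lay below the medians of their lists, which were 16, 15, 17 and 17. Pol II of Fasn was 8.91, 7.04 and 13.5 at 3, 16 and 36 h. C/EBPbeta regions within 10 kb of Fasn numbered 6 at 3 and 36 h and 2 to 4 at the other times. Over all tested genes the mean number of C/EBPbeta regions was 1.93, 2.04, 1.63, 1.25, 1.395, 1.755, 1.06 and 1.27 in time order, so it too was higher at 3 and 36 h than at the times next to each. Acacb had a site 9150 bp upstream in C/EBPbeta at 3 and 36 h and in C/EBPalpha at 36 and 168 h. At 3 and 36 h, the times of its highest Pol II, this site was thus listed for C/EBPbeta, beside the constant site 8020 bp upstream. At 168 h, when Pol II of Acacb was lowest (-0.523), the 9150 bp site was listed for C/EBPalpha. How many tested genes have a site with such a match to Pol II was not counted.

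**Figure D5:**
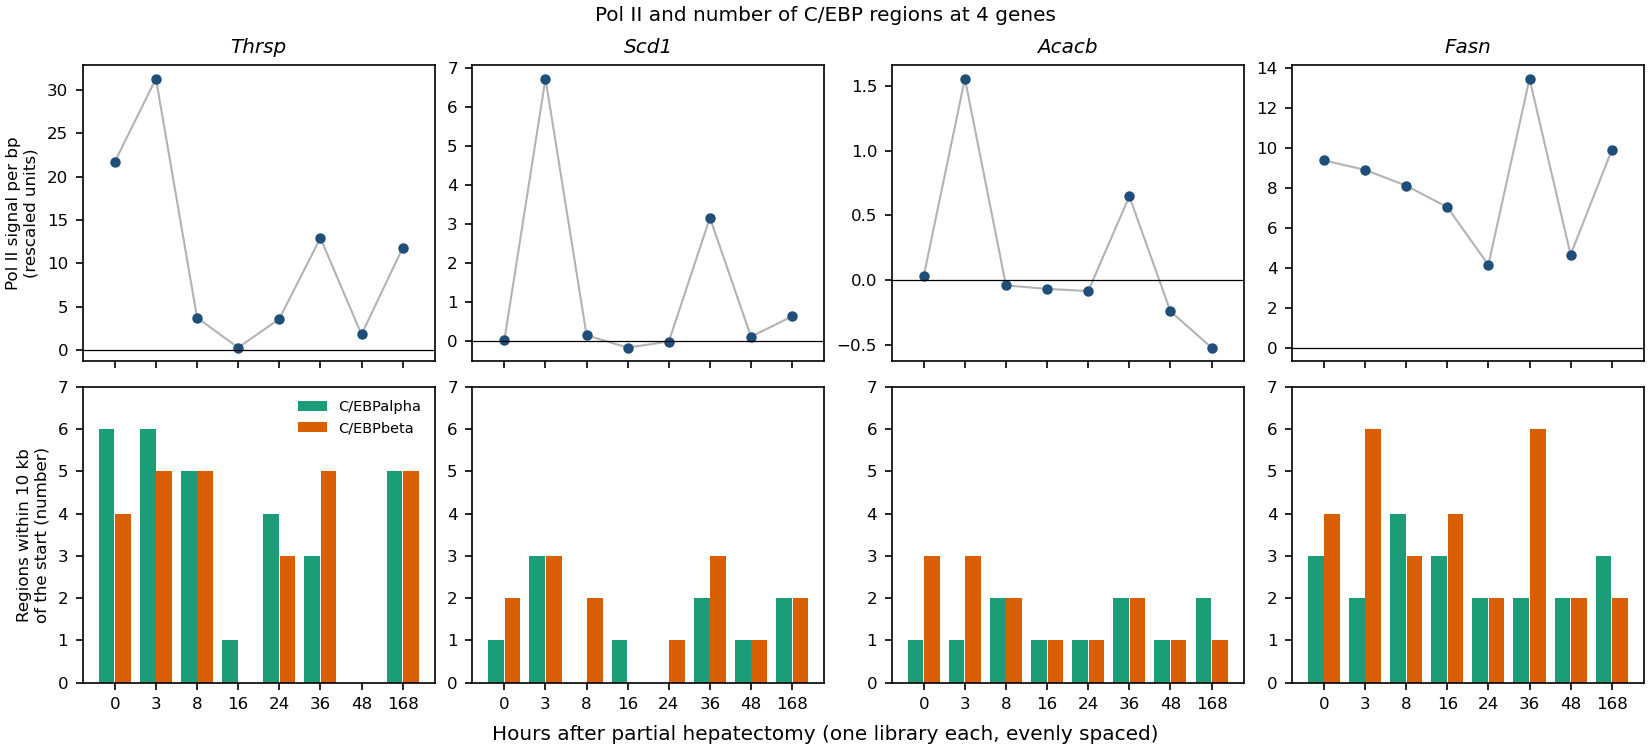
Upper row, Pol II signal per bp (rescaled units) of Thrsp, Scd1, Acacb and Fasn by hours after surgery. Lower row, number of C/EBPalpha (green) and C/EBPbeta (orange) regions within 10 kb of the start, 1 list per bar. Thrsp has no C/EBPbeta region at 16 and 48 h, and Fasn has 6 at 3 and 36 h.

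Me1 had the fewest regions, 4 of C/EBPalpha (0, 3, 8 and 24 h) and 3 of C/EBPbeta (0, 8 and 24 h). They fell into 2 sites, 1614 and 1854 bp downstream of the start used here, which itself lay 950 bp past the nearest RefSeq start. Mlxipl had the most C/EBPbeta regions, 35, and 30 C/EBPalpha regions, as many as Thrsp. They fell into 8 sites that included one 2378 bp upstream in 14 lists. Elovl6 had a site 1737 bp upstream in 13 lists. Thus the gene with the least Pol II had the fewest regions, but Acaca, with 27 and 31, had more than Srebf1, with 20 and 29, and less Pol II.

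Egr1 was assayed at 36 h alone, and its peaks lay within 10 kb of 3 of the 10 genes, against 19.5% of tested and 10.9% of measured genes. None was within 1 kb (3.78% of tested genes). The peaks were 7716 bp upstream of Acacb, with the authors' score of 493, 5713 bp upstream of Mlxipl (181) and 4048 bp downstream of the Elovl6 start (95.6). Each spanned a C/EBP site, and the share of all Egr1 peaks that do so was not counted. The Acacb peak, on chromosome 5 at 114606891 to 114608734, contained the site in all 16 C/EBP lists, the Mlxipl peak one in 11 lists and the Elovl6 peak one in 5. The peaks were 888 to 1844 bp wide, far wider than C/EBP regions.

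The deposited gene entries limit what a start means at some of these genes. Compared with RefSeq (GRCm38.p6) through the distances to 6 neighbouring genes, Fasn, Scd1, Elovl6, Me1 and Thrsp covered 96.8% to 100.0% of the RefSeq gene. The start used for Me1 still lay 950 bp past its nearest RefSeq start. Acaca covered 8.18%, Srebf1 44.9%, Acly 52.5%, Mlxipl 63.1% and Acacb 80.6%. Those of Srebf1, Mlxipl and Acacb began 13832, 17033 and 19197 bp inside the RefSeq gene, within 117, 32 and 0 bp of an internal RefSeq start. The Acaca entry began 43682 bp inside the gene, and no start in the RefSeq promoter table lay near it. Whether the start used for Acaca is a promoter was not tested, and its Pol II describes that stretch of the gene only. Pol II of Srebf1 likewise describes the body from the internal start onward, and that body shared 108 bp with Rai1 on the other strand.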

How the data were processed

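Titles gave each sample its antibody and time. Of 26 samples 25 were used. The IgG mock at 0 h was not analysed here, and nothing is corrected by it. The submitters' processing notes name Bowtie 0.12.7, MACS 1.4.1 and mm9 without roles. The deposited Pol II files hold a signed, background-subtracted signal per gene, judged from its values, and the authors' scaling is unknown here. It is not a count, so the test planned for counts gave way to limma 3.58.1 (R 4.3.3), and depth is unknown. The deposited C/EBP and Egr1 lists hold a score per region, the authors' own, used only within a list.

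Signals were divided by measured width and rescaled by median ratios over the 1472 genes above 0.5 in every library. The factors alone would shift log2 differences from 0 h by 0.26, 0.33, -0.32, 0.41, -0.01, 0.33 and 0.97 in time order. Because 0.5 was added after rescaling, the differences of low genes shifted by other amounts. That of Scd1 at 168 h, for example, was 0.76 without rescaling and 1.12 with it. Of 31804 gene entries 10871 were left out (no width, a repeated name, under 500 bp or no placed chromosome). Gene starts are entry starts moved back by 500 bp. The trend model had a natural spline (3 degrees of freedom, times as ranks), an adjusted p threshold of 0.05 and a check on simulated data. In that check 57 of 100 planted smooth changes of 2 on the log2 scale were recovered, and 100 of 100 changes of 4. It also called 9 genes with no planted change. The error of the trend model is the scatter of libraries about a curve, which is not replicate error.

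The genes and lists were chosen with earlier results of these data known. All 10 genes are named, and in each of 4 pathway groups the 2 genes of highest mean signal. One gene of the list is not reported here, and the groups are counted without it. The 5 genes of likest profile had the highest Pearson correlation. Promoter sequences are from RefSeq, GRCm38.p6, where 9 of the 10 genes had an entry. Other pseudocounts, filters, scalings, splines, distances and score limits were tried, and each library was left out in turn.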

Additional observations from a re-analysis of the deposited data

How the results depend on the processing

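None of the 9 tested fatty acid synthesis genes (8 without the 3 or 36 h library, 10 without a filter) passed the trend test in any of the settings run (pseudocount of 0.05, no filter, no rescaling, library medians subtracted, spline with 2 degrees of freedom), nor with any 1 library left out (0 to 0 genes). The smallest adjusted p of limma ran from 0.207 without the 0 h library, where 4 genes had an unadjusted p under 0.05, to 0.714 without the 168 h library. With scores of 100 or more only, C/EBPalpha regions were near 42 of 80 gene and time pairs and C/EBPbeta regions near 41, but scores are scaled within each list. Within 5 kb, Egr1 peaks were near 1 gene. The shares of all tested genes at these score and distance limits were not counted. The genes higher at 36 h numbered 1 with library medians subtracted, where Acacb was at 0.98, and those at 168 h none, with Scd1, Elovl6 and Acly at 0.94, 0.89 and 0.96. With a pseudocount of 0.05, 2, 1 and 1 genes were higher at 8, 24 and 48 h. No paired analysis was possible because each antibody and time had 1 library. Depth is unknown, so it limits every value by an amount that cannot be given, and the cause of these shifts was not tested.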
